A study of Mus musculus with 32 samples.

Results

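The 7 genes described here encode enzymes and a carrier linked to the making of palmitate from citrate or acetate: Slc25a1, Acly, Acss2, Acaca, Acacb, Fasn and Me1. The role of Acacb differs, as given below. They were chosen by gene name with earlier results of these data known, so the counts of called members below are a description. All 7 were found among the 18124 genes of the deposited normalized table. Subcutaneous white fat was biopsied from C57BL/6J mice on day 9 after either of 2 operations: vertical sleeve gastrectomy (VSG), in which the stomach is cut down to a narrow sleeve, or sham surgery. Zeitgeber time (ZT) counts hours from lights on. For each surgery 4 animals were sampled at each of ZT1, ZT7, ZT13 and ZT19, which gave 8 groups and 32 libraries, 16 per surgery. Both surgeries shared the same feeding scheme: a liquid diet was offered as a choice from 3 days and given alone from 2 days before the operation, the animals were then fasted, and after it the liquid diet was the only food until day 3 and a choice beside HFD from day 4. Each library came from a separately numbered animal. The sex and age of the animals, and how much each ate, were not used here. A biopsy of fat holds several cell types, and in bulk RNA a fall in the number of cells of a type and a fall in the RNA per cell cannot be told apart.

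Fatty acid synthesis in the cytosol starts from acetyl-CoA. The mitochondrial citrate carrier encoded by Slc25a1 exports citrate, ATP citrate lyase (Acly) splits it into acetyl-CoA and oxaloacetate, and acetyl-CoA synthetase (Acss2) makes acetyl-CoA from acetate. The acetyl-CoA carboxylases add a carboxyl group to give malonyl-CoA: the product of Acaca works in the cytosol and feeds synthesis, whereas the product of Acacb sits at the outer mitochondrial membrane, where its malonyl-CoA inhibits the entry of fatty acids into mitochondria. Fatty acid synthase (Fasn) builds palmitate from acetyl-CoA and malonyl-CoA with NADPH, part of which malic enzyme (Me1) supplies. In adipose tissue genes of this pathway are known to be induced by feeding and insulin, and to fall on fasting. The transcription factors SREBP-1c and ChREBP are known to activate genes of the pathway, and their part in fat was not tested here.

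The promoters of 4 of the genes are shown because they span the range of responses described below: Slc25a1 and Acss2 fell after VSG, Fasn is the synthase itself and varied widely between animals, and Acacb rose. The sequences are RefSeq windows on GRCm38.p6, from 250 bases before to 50 bases after an annotated start, read along the gene. They lie at chr16:17928170-17928469 on the minus strand, chr2:155517793-155518092 on the plus strand, chr11:120824498-120824797 on the minus strand and chr5:114165268-114165567 on the plus strand. Capitals mark matches, on either strand, to the CCAAT box (CCAAT), the E-box CACGTG bound by USF and ChREBP family factors, and the GC box (GGGCGG) bound by SP1.
Slc25a1: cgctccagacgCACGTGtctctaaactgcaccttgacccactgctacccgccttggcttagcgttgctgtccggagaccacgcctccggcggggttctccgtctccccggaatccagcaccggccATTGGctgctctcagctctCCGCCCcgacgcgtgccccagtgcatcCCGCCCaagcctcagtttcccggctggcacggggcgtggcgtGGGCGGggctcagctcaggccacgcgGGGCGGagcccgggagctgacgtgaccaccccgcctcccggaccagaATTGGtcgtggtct
Acss2: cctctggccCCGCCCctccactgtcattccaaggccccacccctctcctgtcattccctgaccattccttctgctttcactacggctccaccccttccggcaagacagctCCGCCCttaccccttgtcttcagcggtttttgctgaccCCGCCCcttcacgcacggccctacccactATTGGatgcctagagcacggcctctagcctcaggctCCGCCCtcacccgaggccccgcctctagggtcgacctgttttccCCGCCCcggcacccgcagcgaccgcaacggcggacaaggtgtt
Fasn: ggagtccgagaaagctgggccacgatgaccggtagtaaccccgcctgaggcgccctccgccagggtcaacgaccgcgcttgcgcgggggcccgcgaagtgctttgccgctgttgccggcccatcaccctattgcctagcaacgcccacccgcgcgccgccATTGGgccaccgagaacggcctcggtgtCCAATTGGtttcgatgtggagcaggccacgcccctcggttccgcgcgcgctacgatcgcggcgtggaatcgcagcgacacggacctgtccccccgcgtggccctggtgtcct
Acacb: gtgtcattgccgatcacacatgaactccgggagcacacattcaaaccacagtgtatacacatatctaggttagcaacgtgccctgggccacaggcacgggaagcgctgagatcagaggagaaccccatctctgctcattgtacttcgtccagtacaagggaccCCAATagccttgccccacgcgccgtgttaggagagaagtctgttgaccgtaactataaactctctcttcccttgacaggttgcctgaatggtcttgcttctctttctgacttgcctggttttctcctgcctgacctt
The letters TCACNCCAC, a form of the sterol response element, were searched too and were found in none of the 8 windows of the 7 genes and in 408 of the 32851 promoter windows of the reference table. CCAAT occurred in 37.4% of those windows, CACGTG in 7.15% and GGGCGG in 35.7%. Slc25a1 held 1 E-box, 239 bases before its start, with 2 CCAAT boxes and 4 GC boxes. Acss2 held 1 CCAAT box and 5 GC boxes. Fasn held 3 CCAAT boxes, of which the 2 closest to the start overlap each other on opposite strands, and no GC box in these letters. The Acacb window held 1 CCAAT box and no GC box. That window lies inside the deposited interval of the gene, so it belongs to an annotated start downstream of the outermost one. A match is a description of the letters in a window and not evidence of binding.

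Libraries held 15.7 to 37.2 times 1e6 reads assigned to genes, and the sham libraries averaged 27.4 ± 4.72 and the VSG libraries 24.7 ± 5.07 (SD, n = 16). Levels below are the deposited normalized values, in which counts were scaled for the depth of each library but not for gene length, so they are compared between animals and give no ranking of transcripts by abundance. The members were covered by at least 614 reads in every library. Fold changes are differences of log2(value + 1), VSG minus sham, given with their standard error and an adjusted p from limma, fitted over the 15588 genes with a mean value of at least 10. A gene was called at an adjusted p under 0.05. Counts of VSG animals above or below the sham animals, and groups without overlap, are descriptions. The share of all genes that show the same was not worked out. Muscle markers were high in 7 libraries (2 sham, 5 VSG) and B cell markers in 4 (1 sham, 3 VSG). The muscle-marker-high sham libraries were replicate 4 at ZT1 and 2 at ZT13. Those of VSG were replicate 2 at ZT1, 3 at ZT13, and 1, 2 and 4 at ZT19. Without them VSG at ZT19 was replicate 3 alone. The B-cell-marker-high libraries were sham replicate 1 at ZT1, VSG replicates 1 and 3 at ZT1 and VSG replicate 1 at ZT13. The markers thus lay unevenly over the groups. Weight loss, recorded per animal without a unit, was 16.6 ± 3.81 in the VSG animals and 4.97 ± 2.03 in the sham animals (SD, n = 16).

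The first comparison asked how the genes differed between the surgeries over all 4 times. Of the 7 genes, 5 fell after VSG, Acacb rose, and Acaca did not pass the test. Over all genes tested 39.2% were called, 18.3% higher and 20.9% lower. The median change of the 7 genes was -0.86 on the log2 scale, against 0.01 over all genes tested. Acss2 fell 2.36-fold, Fasn 2.14-fold, Slc25a1 2.05-fold, Me1 1.81-fold and Acly 1.35-fold, while Acacb rose 1.84-fold. These calls were kept when each of the 32 libraries was left out in turn, whereas Fasn was not called by edgeR or DESeq2 on the recovered reads, which called the other 5 (39.2% and 42.1% of all genes called).

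**Figure D1:**
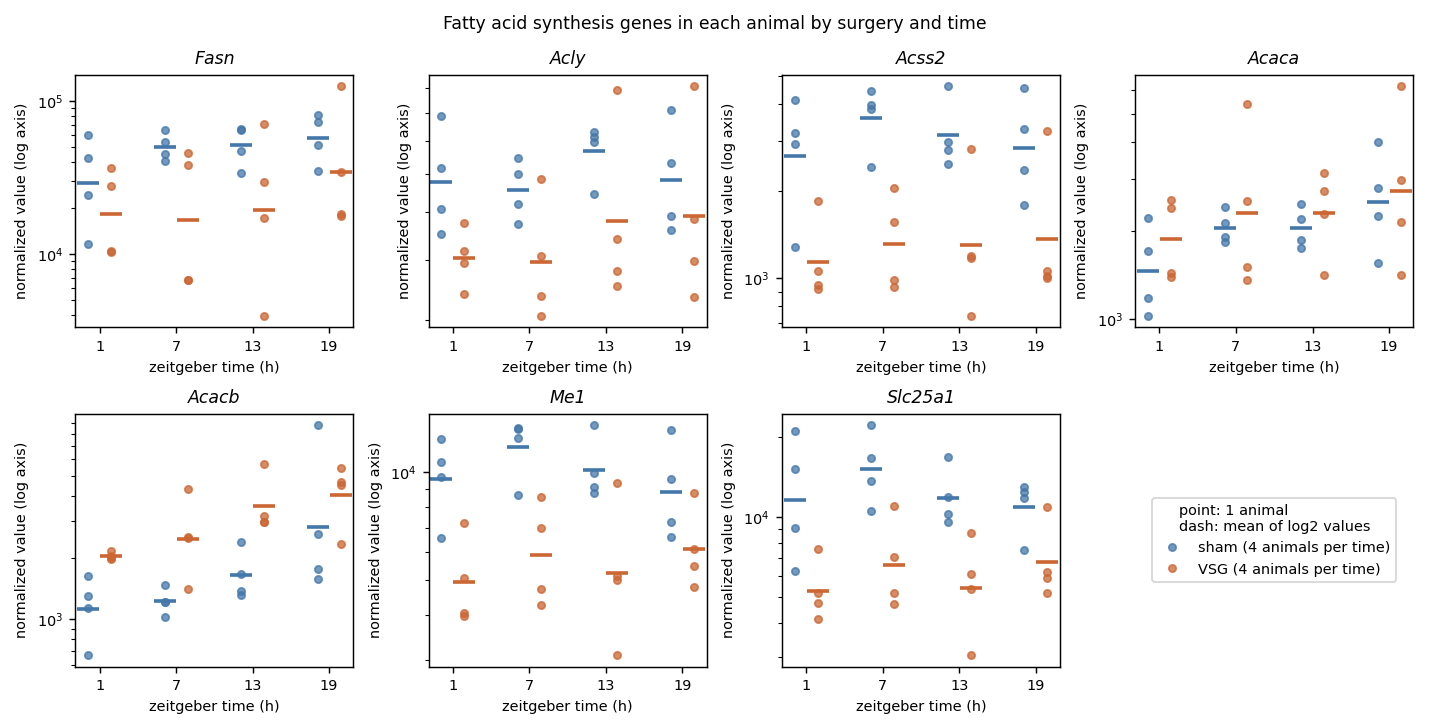
Normalized value of each gene (log axis) in each of the 32 animals by zeitgeber time in hours, with sham in blue and VSG in orange. Points are animals and dashes are the means of the log2 values of 4 animals. The dashes of Slc25a1, Me1 and Acss2 lie lower after VSG at every time and those of Acacb higher, while animals of the surgeries overlap at some times for each. Fasn reaches from 3966 to 124951 after VSG.

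The genes that supply acetyl-CoA all fell. Slc25a1 (ENSMUSG00000003528, mm10 chr16:17925211-17928219, minus strand) had values after sham surgery of 9130.0, 21113, 15124 and 6274 at ZT1, 16643, 22098, 13629 and 10575 at ZT7, 10280.3, 9616, 11890.4 and 16738 at ZT13, and 12932, 7513, 12405 and 11764 at ZT19. After VSG its values were 4163, 4765, 5178 and 7597 at ZT1, 7079, 11040.2, 5197 and 4726 at ZT7, 3039, 8701, 5374 and 6129.7 at ZT13, and 5893, 10937, 5194 and 6251 at ZT19. All 16 VSG animals were below the sham median and 11 were below every sham animal. Over all times the citrate carrier went from 12983 ± 4464 to 6329 ± 2263 (SD, n = 16), a log2 change of -1.04 ± 0.17 (adjusted p = 5.69e-05, limma). At ZT13 the 4 animals of each surgery did not overlap.

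Acss2 (ENSMUSG00000027605, chr2:155517948-155585724, plus strand) had values after sham surgery of 2927, 4135, 3177 and 1286 at ZT1, 4439, 3858, 3986 and 2432 at ZT7, 2790.5, 2482, 2969.9 and 4634 at ZT13, and 4559, 1793, 3282 and 2366 at ZT19. After VSG the values were 919, 952, 1058 and 1846 at ZT1, 2047, 1562, 933 and 985 at ZT7, 742, 2796, 1174 and 1198 at ZT13, and 1015, 3249, 1063 and 1005 at ZT19. Of the 16 VSG animals 15 were below the sham median and 11 below every sham animal, and at ZT7 the surgeries did not overlap. The mean went from 3195 ± 1004 to 1409 ± 725 (SD, n = 16), and the log2 change of -1.24 ± 0.20 had an adjusted p of 5.12e-05 (limma). The interval of Acss2 overlaps those of Ggt7 and Gss on the opposite strand, and since the sources used here do not give whether counting used strand, reads in the shared stretches cannot be told apart.

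Acly (ENSMUSG00000020917, chr11:100476353-100528000, minus strand), the enzyme that opens citrate to acetyl-CoA, fell as well. Its lowest, median and highest values were 4521, 6080.4 and 8135 after sham surgery and 3064, 4020.5 and 9106 after VSG. Of the 16 VSG animals 11 were below every sham animal, while 2, at ZT13 and ZT19, were above every sham animal. The mean went from 6058 ± 1185 to 4661 ± 1839 (SD, n = 16), a log2 change of -0.43 ± 0.14 (adjusted p = 0.0136, limma). With the muscle and B cell marker levels as covariates the change was -0.34 (adjusted p = 0.0693), and with the adipocyte marker level as a covariate it was -0.31 (adjusted p = 0.0852), so the call was lost in both fits.

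Of the carboxylases, Acacb rose and Acaca did not pass the test. Acaca (ENSMUSG00000020532, chr11:84129672-84401651, plus strand) had lowest, median and highest values of 1026, 2006 and 4014 after sham surgery and 1352, 2337 and 6205 after VSG, and the surgeries overlapped at every time. Its log2 change was 0.20 ± 0.20 with a 95% confidence interval from -0.20 to 0.60 (adjusted p = 0.428, limma). It turned to -0.08 without the 7 muscle-marker-high libraries, a fit in which the VSG mean at ZT19 was that of replicate 3 alone. With the adipocyte marker level as a covariate Acaca was called higher, at 0.53 (adjusted p = 0.00806, limma).

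Acacb (ENSMUSG00000042010, chr5:114146535-114250761, plus strand) had values after sham surgery of 671, 1296, 1134 and 1627 at ZT1, 1023, 1471, 1220.5 and 1222 at ZT7, 2387, 1665, 1371 and 1319.7 at ZT13, and 1763, 1564, 2604 and 8789 at ZT19. After VSG they were 2031, 1984, 2164 and 1963 at ZT1, 1402, 4292, 2479.7 and 2513 at ZT7, 2993, 2978, 3174 and 5726 at ZT13, and 4516, 5444, 2329 and 4678 at ZT19. Of the 16 VSG animals 15 were above the sham median, and at ZT1 and ZT13 every VSG animal was above every sham animal of that time. How many of all genes separate in this way was not worked out. The highest value of all, 8789, was that of a sham animal at ZT19, whose library also had the second highest level of brown and beige adipocyte markers, a mean log2 value of 9.04. The mean went from 1945 ± 1886 to 3167 ± 1342 (SD, n = 16), a log2 change of 0.88 ± 0.19 (adjusted p = 0.000936, limma). Without the 2 libraries highest in those markers it was 0.95 (adjusted p = 1.65e-05, limma). It was 0.74 when the 7 muscle-marker-high libraries were left out, where the VSG mean at ZT19 was that of replicate 3 alone.

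The ratio of the Acacb value to the Acaca value, taken within each library, is given as a description. Its lowest, median and highest were 0.427, 0.762 and 2.19 in the 16 sham animals and 0.556, 1.42 and 2.51 in the 16 VSG animals. The medians by time ran from 0.611 at ZT7 to 0.970 at ZT19 after sham surgery, and from 1.16 at ZT1 to 1.64 at ZT13 after VSG. The ranges of the surgeries overlapped at every time, and since the values are not scaled for gene length the ratio can be compared between animals but does not show which transcript was more abundant.

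**Figure D2:**
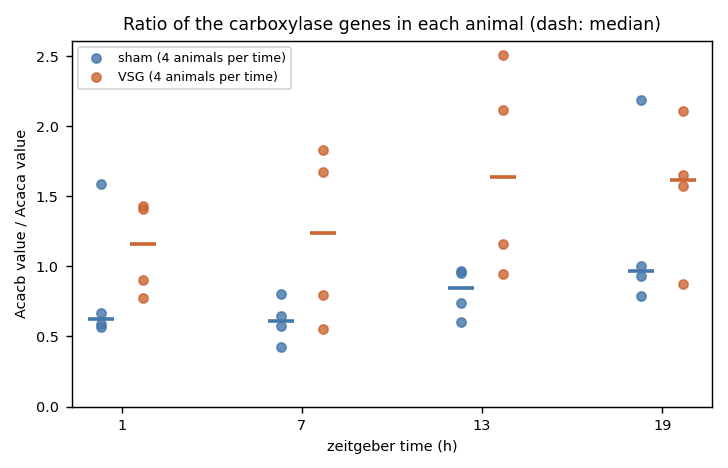
Ratio of the Acacb value to the Acaca value in each animal (y axis, no unit) by zeitgeber time in hours, with sham in blue, VSG in orange and dashes at the medians of 4 animals. The median is higher after VSG at each of the 4 times, from 1.16 to 1.64 against 0.611 to 0.970.

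Fasn (ENSMUSG00000025153, chr11:120805846-120824547, minus strand), which builds the fatty acid chain, had values after sham surgery of 24438, 60201, 42593 and 11592 at ZT1, 64695, 53789.8, 45013 and 40652 at ZT7, 65694, 34091, 47124 and 64860.3 at ZT13, and 72575, 34923, 80692 and 51486 at ZT19. After VSG they were 10416, 10406, 27804 and 36451 at ZT1, 38400.2, 45366, 6738 and 6781 at ZT7, 3966, 70262, 29395 and 17201 at ZT13, and 18166, 124951, 17732 and 34457 at ZT19. The VSG animals spread widely, with 5 of 16 below every sham animal and 1, at ZT19, above all of them. The coefficient of variation was 36.9% after sham surgery and 97.9% after VSG. The mean went from 49651 ± 18326 to 31156 ± 30516 (SD, n = 16), and the log2 change was -1.10 ± 0.36 (adjusted p = 0.0184, limma). Its call was lost with edgeR (-0.72, adjusted p = 0.108) and DESeq2 (-0.72, adjusted p = 0.0696). It was lost as well with the adipocyte marker level as a covariate (-0.59, adjusted p = 0.157), with the muscle and B cell covariates (-0.84, adjusted p = 0.0912) and on leaving out the 4 B-cell-marker-high libraries (-0.90, adjusted p = 0.0538).

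Me1 (ENSMUSG00000032418, chr9:86581371-86695953, minus strand), a source of the NADPH that synthesis consumes, had values after sham surgery of 9735, 10715, 12368 and 6570.4 at ZT1, 13169, 13277, 12482 and 8676 at ZT7, 8753, 9101, 9973 and 13518 at ZT13, and 13118, 7289.8, 9558 and 6622 at ZT19. After VSG they were 4050.3, 5096, 3992 and 7216 at ZT1, 8517, 6999, 4736 and 4281 at ZT7, 3101, 9348, 5159 and 5027 at ZT13, and 4806, 8745, 5476 and 6128 at ZT19. All 16 VSG animals were below the sham median and 11 were below every sham animal, with no overlap at ZT7. The mean went from 10308 ± 2429.5 to 5792 ± 1859 (SD, n = 16), a log2 change of -0.86 ± 0.14 (adjusted p = 5.81e-05, limma).

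Markers of the cell types that the biopsy could hold are given beside these changes. The mean log2 level of 12 adipocyte markers ran from 15.3 to 16.5 in both surgeries, with 1 of the 12 called higher and 3 lower and a median change of -0.15. That is 33.3% of the list, near the 39.2% called over all genes, and is not a result about adipocytes. Of the 2 genes of the list with the highest values, which are not scaled for gene length, Fabp4 was at 0.17 (adjusted p = 0.357) and Lpl at -0.88 (adjusted p = 0.000292). All 10 neutrophil markers were called higher, where 18.3% of all genes were, with library means of 2.35 to 5.37 after sham surgery and 4.30 to 9.93 after VSG. For S100a9 and S100a8, the pair with the highest values, the log2 changes were 4.93 and 2.05. Of 10 macrophage markers 9 were called higher, 90% against the same 18.3%, with Lyz2 at 0.86 and Csf1r at 0.75, and median library means of 10.4 against 11.4. The part of these cell types in the changes of the 7 genes was not tested.

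Calls in the other marker lists were as follows, against 39.2% of all genes tested. Of 16 skeletal muscle markers 1 was called higher and 1 lower (library means 4.22 to 11.4 in sham, 3.79 to 11.4 in VSG), and the pair with the highest values, Acta1 and Myh4, were not called (-0.96 and 1.12). Of 14 B cell and lymph node markers 2 were called higher and 1 lower by limma, while edgeR called 4 higher and DESeq2 11, each with 1 lower. The median change of that list was 1.19 on the log2 scale (library medians 6.02 and 6.06), with Ighm at -1.75 and Ighd, not called, at 0.57. None of 12 T cell markers was called by limma, edgeR or DESeq2 and 1 had an unadjusted p under 0.05, with Lck at 0.87 and Tcf7 at 0.92 on the log2 scale. Of 10 brown and beige adipocyte markers 1 was called higher and 3 lower (6.02 to 9.04 against 4.80 to 9.20), with Adrb3 higher by 0.79 and Cox8b, not called, at 0.20. Of 8 fibroblast markers 2 were called lower, among them Col3a1 at -0.75, while Col1a1 at -0.37 was not called. Of 8 endothelial markers 2 were called higher, among them Pecam1 at 0.21, and 1 lower, with Cdh5 at -0.16 not called. Among epithelial and mammary genes 1 of 10 had a mean value high enough to test, Cdh1, at 0.77. When the 4 libraries high in B cell markers were left out 5 of the 7 members were called, against 6 with all libraries. The share of all genes called in that fit is not given here, so the count is a description. Leaving out the 7 muscle-marker-high libraries left VSG at ZT19 with replicate 3 alone.

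The genes around the pathway were read from lists that were put together with earlier results of these data known, so their counts are a description. Of 17 tested genes that supply citrate or NADPH 11 were called lower, and none was called higher by limma, edgeR or DESeq2 or was higher at an unadjusted p under 0.05. Slc25a10, the mitochondrial dicarboxylate carrier, went from 13664 ± 4047 to 8255 ± 2928 (-0.75 ± 0.17, adjusted p = 0.000936). Pgd, a pentose phosphate enzyme that makes NADPH, went from 14384 ± 3759 to 8799 ± 1966 (-0.69 ± 0.13, adjusted p = 0.000171). Pcx, pyruvate carboxylase, which refills oxaloacetate, went from 26569.8 ± 5466 to 18048 ± 4096 (-0.56 ± 0.11, adjusted p = 0.000305). The called genes were 64.7% of the list, against 39.2% of all genes tested. The median change of the list was -0.34, against 0.01 for all genes tested.

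Of 13 tested desaturation and elongation genes 7 were called lower and 1 higher, 61.5% of the list against 39.2% of all genes, with a median of -0.18. Elovl3, an elongase of very long chains that is also a brown fat marker, fell by 1.94 on the log2 scale, at a low level (24.5 ± 18.3 to 7.59 ± 14). Scd2, a stearoyl-CoA desaturase, went from 11191 ± 3909.9 to 5115 ± 2991 (-1.22 ± 0.24), and Hacd2, a dehydratase of the elongation cycle, from 4945 ± 782 to 2989.6 ± 1058 (-0.78 ± 0.10). Fads1, a front-end desaturase of polyunsaturated fatty acids, rose (0.33 ± 0.09, adjusted p = 0.00551), a call lost without the muscle-marker-high libraries (0.27, adjusted p = 0.0662). Without the 4 B-cell-marker-high libraries 3 of the 13 genes were called lower and 1 higher. DESeq2 called 7 lower and 1 higher, where it called 42.1% of all genes. By edgeR 4 of the 13 were called lower and 1 higher, where 39.2% of all genes were called. The list was thus not called above the share of all genes by edgeR.

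Of 13 tested regulators of the pathway 4 were called lower and 1 higher, with a median of -0.07. That is 38.5% of the list, near the 39.2% called over all genes, and is not a result about the regulators. By the count tools edgeR called 3 lower and 2 higher and DESeq2 called 3 lower and 3 higher. Insig1, which retains the SREBP complex in the endoplasmic reticulum and is itself a target of SREBP, went from 4920.4 ± 1589 to 2730.2 ± 1034 (-0.87 ± 0.19, adjusted p = 0.000719). Its relative Insig2 changed by -0.37 ± 0.05, and Prkaa2, a catalytic subunit of the AMP-activated kinase that inhibits the carboxylases, by -0.57 ± 0.13. Usf1, an E-box factor, rose by 0.32 ± 0.06 (adjusted p = 0.000113). Srebf1 and Mlxipl, which encode SREBP-1c and ChREBP, are named here for their role and not by the rule for named genes. They had values of 11047 ± 3083 to 9495 ± 2716 (-0.21 ± 0.13, adjusted p = 0.201) and 3461 ± 996 to 3374 ± 1085 (-0.05 ± 0.11, adjusted p = 0.773), neither of which passed the test. Counts taken over a whole gene do not separate its isoforms.

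Among 10 tested genes that use acyl-CoA or malonyl-CoA 3 were called higher and 4 lower, 70% of the list against 39.2% of all genes and in both directions, with a median of -0.09. Acot1, an acyl-CoA thioesterase present at a low level, rose by 0.71 ± 0.19, Mlycd, which degrades malonyl-CoA, by 0.28 ± 0.08, and Acsl5, an acyl-CoA synthetase, by 0.16 ± 0.04. Acsl1, the main acyl-CoA synthetase of fat, changed by -0.82 ± 0.10, Cpt2 by -0.29 ± 0.10 and Cpt1a by -0.28 ± 0.08, where Cpt2 and Cpt1a encode carnitine palmitoyltransferases of mitochondrial import. Without the 7 muscle-marker-high libraries 2 of the list were called higher and 1 lower, and Mlycd, Cpt2 and Cpt1a lost their calls. Cpt2 also lost its call with either set of marker levels as covariates. Of 14 acetyl-CoA enzymes and mitochondrial relatives 6 were called lower, 42.9% of the list, near the 39.2% of all genes. None was called higher by limma, edgeR or DESeq2, and 1 was higher at an unadjusted p under 0.05. The median was -0.22, and the calls were led by Oxsm and Mecr of mitochondrial fatty acid synthesis (-0.31 ± 0.06 and -0.29 ± 0.10) and the thiolase Acat1 (-0.28 ± 0.07). Mecr was not called without sham replicate 2 or 3 at ZT1, or without VSG replicate 1 at ZT1, 4 at ZT7 or 1 at ZT13, with values from -0.26 to -0.23. It also lost its call with the adipocyte marker level as a covariate (-0.10, adjusted p = 0.281), with the muscle and B cell covariates (-0.18, adjusted p = 0.167) and without the 4 B-cell-marker-high libraries (-0.19, adjusted p = 0.114).

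The second comparison asked whether the difference between the surgeries depended on the time of day. At ZT1, 2 of the 7 genes were called lower, Me1 (-0.96 ± 0.29) and Slc25a1 (-1.14 ± 0.34), where 5.52% of all genes tested were called, 1.17% higher and 4.34% lower. At ZT7, 3 were called lower, Acss2 (-1.45 ± 0.41), Me1 (-0.99 ± 0.29) and Slc25a1 (-1.20 ± 0.34), where 5.09% of all genes were called, 1.73% higher and 3.36% lower. These 3 genes were called lower at ZT13 as well (-1.26 ± 0.41, -0.96 ± 0.29 and -1.12 ± 0.34), where 9.94% of all genes were called, 4.21% higher and 5.72% lower. At ZT19 none of the 7 was called by limma, edgeR or DESeq2, with 1 gene, Acss2, at an unadjusted p under 0.05, and 0% of all genes tested were called by limma. Of all genes 1072 had an unadjusted p under 0.05 there, edgeR called none and DESeq2 called 0.398%.

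The calls at single times lay close to the threshold, with adjusted p-values from 0.0348 to 0.0488. Leaving out 1 library moved them across it. The library left out could be of any time. The Acss2 call at ZT7 was lost without any 1 of 6 libraries and that at ZT13 without any 1 of 20. For Me1 this held for 17 (call at ZT1), 7 (ZT7) and 7 (ZT13), and for Slc25a1 for 24, 6 and 7. The adjusted p-values reached 0.191 (limma). Acss2 gained a call at ZT1 without sham replicate 4 (adjusted p = 0.017) or VSG replicate 4 (0.0449) of ZT1, or VSG replicate 2 of ZT19 (0.0491). DESeq2 called it at ZT1 too (adjusted p = 0.0268). Acly gained a call at ZT13 without VSG replicate 2 of that time (adjusted p = 0.0373, limma). The surgery differences kept their sign at every time for the 5 genes that fell, including ZT19, where they were -0.73 ± 0.73 for Fasn, -0.25 ± 0.27 for Acly, -1.04 ± 0.41 for Acss2, -0.53 ± 0.29 for Me1 and -0.69 ± 0.34 for Slc25a1. At ZT19 the libraries of VSG replicates 1, 2 and 4 were high in muscle markers, and no sham library was. The part of this in the differences was not tested. The ZT19 differences leaned on single animals. Without VSG replicate 2 at ZT19 they were -1.35 for Fasn, -0.54 for Acly, -1.46 for Acss2, -0.70 for Me1 and -0.92 for Slc25a1. The values nearest to 0 were -0.41 for Fasn and -0.56 for Slc25a1 without VSG replicate 3, -0.06 for Acly without VSG replicate 1, and -0.81 for Acss2 and -0.33 for Me1 without sham replicate 1, all at ZT19.

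Acacb had differences of 0.85 ± 0.39, 1.01 ± 0.39, 1.12 ± 0.39 and 0.52 ± 0.39 at ZT1, ZT7, ZT13 and ZT19, and passed the adjusted threshold at none of these times with limma (adjusted p from 0.0609 to 0.828). It was called at ZT7 without sham replicate 4 at ZT19 (1.01, adjusted p = 0.0375) or VSG replicate 1 at ZT7 (1.29, adjusted p = 0.0401). At ZT13 it was called without sham replicate 4 at ZT19 (1.12, adjusted p = 0.0176), sham replicate 1 at ZT1 (1.12, adjusted p = 0.0486) or VSG replicate 2 at ZT13 (1.21, adjusted p = 0.0484). With the adipocyte marker level as a covariate it was called at ZT1 (1.17, adjusted p = 0.0494), ZT7 (1.11, adjusted p = 0.0408) and ZT13 (1.39, adjusted p = 0.0185). Array weights called it at ZT7 (1.01, adjusted p = 0.0137) and ZT13 (1.43, adjusted p = 0.000383), the 8 libraries of ZT13 alone at that time (1.12, adjusted p = 0.0304), leaving out the 2 libraries highest in brown and beige markers at ZT13 (1.12, adjusted p = 0.0116), and DESeq2 also at ZT13 (adjusted p = 0.0305). The ZT19 difference was 1.07 without sham replicate 4 and 0.24 without sham replicate 2 of that time, neither of which was called.

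**Figure D3:**
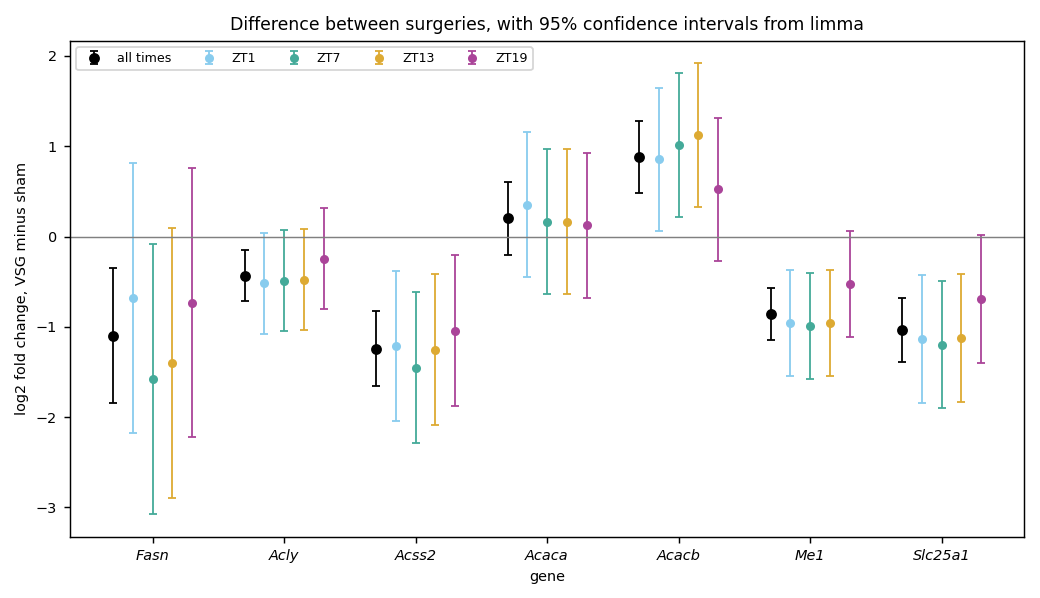
Log2 fold change of each gene, VSG minus sham (y axis), over all times (black) and at each zeitgeber time (colours), with 95% confidence intervals from limma (32 libraries, 4 per group). The intervals at ZT19 overlap those of the other times for every gene, and the interval of Acaca over all times, from -0.20 to 0.60, includes 0.

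The difference between times was tested itself and was not shown. None of the 7 genes was called for an interaction of surgery and time by limma, edgeR or DESeq2, none had an unadjusted p under 0.05, and the smallest unadjusted p was 0.615, that of Me1. Over all genes tested 0% were called for the interaction by limma, with 225 at an unadjusted p under 0.05, none called by edgeR and 0.00642%, 1 gene, by DESeq2. The change at ZT19 is therefore not shown to differ from that at other times.

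The third comparison followed each surgery across the day. None of the 7 genes was called for an effect of time by limma, either after sham surgery (1.64% of all genes called) or after VSG (1.52%). Acacb came closest after sham surgery, at an unadjusted p of 0.00861 and an adjusted p of 0.171, the 1 member with an unadjusted p under 0.05, and edgeR and DESeq2 each called 1 member there, where they called 4.4% and 9.13% of all genes. After VSG none was under 0.05 before adjustment, and edgeR (4.54% of all genes called) and DESeq2 (11.3%) called none. The Acacb group means after sham surgery were 1182 ± 398, 1234 ± 184, 1686 ± 492 and 3679.9 ± 3436 at ZT1, ZT7, ZT13 and ZT19 (SD, n = 4). After VSG they were 2036 ± 90, 2672 ± 1197, 3718 ± 1342 and 4242 ± 1338 (SD, n = 4). In both surgeries the group mean was lowest at ZT1 and highest at ZT19. The sham mean at ZT19 rested largely on replicate 4, at 8789, without which it was 1977 ± 552 (SD, n = 3).

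A fit of a 24 h cosine gave Acacb an amplitude, from mean to peak, of 0.66 ± 0.20 log2 units after sham surgery with a peak at ZT17.4 (adjusted p = 0.178, limma), and of 0.54 ± 0.20 after VSG with a peak at ZT15.7 (adjusted p = 0.532). Without sham replicate 4 at ZT19 the sham amplitude was 0.41. No member was called rhythmic by limma in sham (1.6% of all genes called) or VSG (0.507%), with 1 member each, Acacb, at an unadjusted p under 0.05. For sham edgeR called none (1.65% of all genes called) and DESeq2 called 1 (5.43%), and for VSG both called none (0.603% and 1.33%). The other 6 genes had amplitudes of 0.11 to 0.41 after sham surgery and 0.03 to 0.52 after VSG, none with an unadjusted p under 0.05. No member was called for a difference in rhythm between the surgeries by limma, edgeR or DESeq2, none was under 0.05 before adjustment, and 0% of all genes tested were called by limma. Of all genes 172 were under 0.05 before adjustment, edgeR called none and DESeq2 called 1.

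The order of the 8 group means separated the surgeries for 4 genes. The share of all genes so separated was not worked out, so the order is a description. For Acss2, Me1 and Slc25a1 the 4 VSG groups were the lowest: from 1194 ± 439 at ZT1 to 1583 ± 1111 at ZT19 for Acss2, against 2881 ± 1184 to 3679 ± 868 in the sham groups (SD, n = 4). Me1 ran from 5089 ± 1506 to 6289 ± 1724 after VSG and from 9147 ± 2930.4 to 11901 ± 2178 after sham surgery. Slc25a1 ran from 5426 ± 1506 to 7069 ± 2616 and from 11153 ± 2473 to 15736 ± 4912. Acly had the same separation, with VSG means of 4066 ± 561 to 5321 ± 2598 below sham means of 5599 ± 784 to 6724 ± 846. For Fasn the sham mean at ZT1, 34706 ± 21228, lay below the VSG mean at ZT19, 48827 ± 51343. For Acacb the sham mean at ZT19, 3679.9 ± 3436, lay above the VSG means at ZT1, 2036 ± 90, and ZT7, 2672 ± 1197. Acaca means ran from 1528 ± 534 in sham at ZT1 to 3182 ± 2115 after VSG at ZT19, with the surgeries mixed. Neighbours in the order overlapped in range in all 7 pairs of each gene.

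The fourth comparison related the genes to the weight loss of the animal within each surgery, with a mean for each time. Among the 16 VSG animals Fasn and Me1 were called lower with greater weight loss, where 2.71% of all genes tested were called (1.77% higher, 0.943% lower). Fasn fell by 0.27 ± 0.06 log2 units per unit of weight loss (adjusted p = 0.0363, limma). The animal with the least weight loss, 10.59, had the highest Fasn value, 124951, and the animals with the most, 23.12 and 22.8, had 6781 and 3966. Me1 had a slope of -0.091 ± 0.022 (adjusted p = 0.0457).

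Acly, Acss2, Acaca and Slc25a1 had slopes of -0.087 ± 0.024, -0.115 ± 0.034, -0.120 ± 0.037 and -0.091 ± 0.025 and missed the threshold (adjusted p from 0.0656 to 0.0880), while Acacb had -0.011 ± 0.033 (adjusted p = 0.887). On whole reads DESeq2 called 6 of the 7 genes, where it called 8.5% of all genes, and edgeR 2, where it called 2.41%. The 2 limma calls lay close to the threshold. Both were lost without the 2 animals with the greatest weight loss, where the slopes were -0.24 (adjusted p = 0.294) for Fasn and -0.080 (adjusted p = 0.326) for Me1. The Fasn call was lost without any 1 of 10 VSG animals (replicates 1 and 4 at ZT1, 1 and 4 at ZT7, 1, 2 and 4 at ZT13, and 1, 2 and 3 at ZT19), with slopes from -0.32 to -0.23. The Me1 call was lost without any 1 of 12 (replicates 1 and 4 at ZT1, 1, 2 and 4 at ZT7, all 4 at ZT13, and 1, 2 and 3 at ZT19), with slopes from -0.11 to -0.078. Both were lost as well with the adipocyte marker level as a covariate, at -0.21 (adjusted p = 0.0937) and -0.070 (adjusted p = 0.131).

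Among the 16 sham animals no gene of the 7 was called by limma (0.00642% of all genes called) or edgeR (0.0128%), and DESeq2 called 3 (3.9%). Before adjustment 5 were under 0.05, all with negative slopes: Fasn at -0.201 ± 0.065, Acss2 at -0.183 ± 0.050, Slc25a1 at -0.150 ± 0.053, Me1 at -0.119 ± 0.035 and Acly at -0.074 ± 0.033 (adjusted p from 0.118 to 0.297). Acacb had 0.119 ± 0.079 and Acaca -0.040 ± 0.051. Single animals moved these slopes. Without sham replicate 4 at ZT1 the slope was -0.083 for Fasn, -0.135 for Acss2, -0.099 for Slc25a1 and 0.067 for Acaca, and without sham replicate 4 at ZT19 it was 0.048 for Acacb. The sham animals lost between 2.15 and 8.96 and the VSG animals between 10.59 and 23.12, so the ranges did not meet. Weight loss and surgery can therefore not be told apart between the surgeries, and the slopes of the surgeries were not tested against each other.

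**Figure D4:**
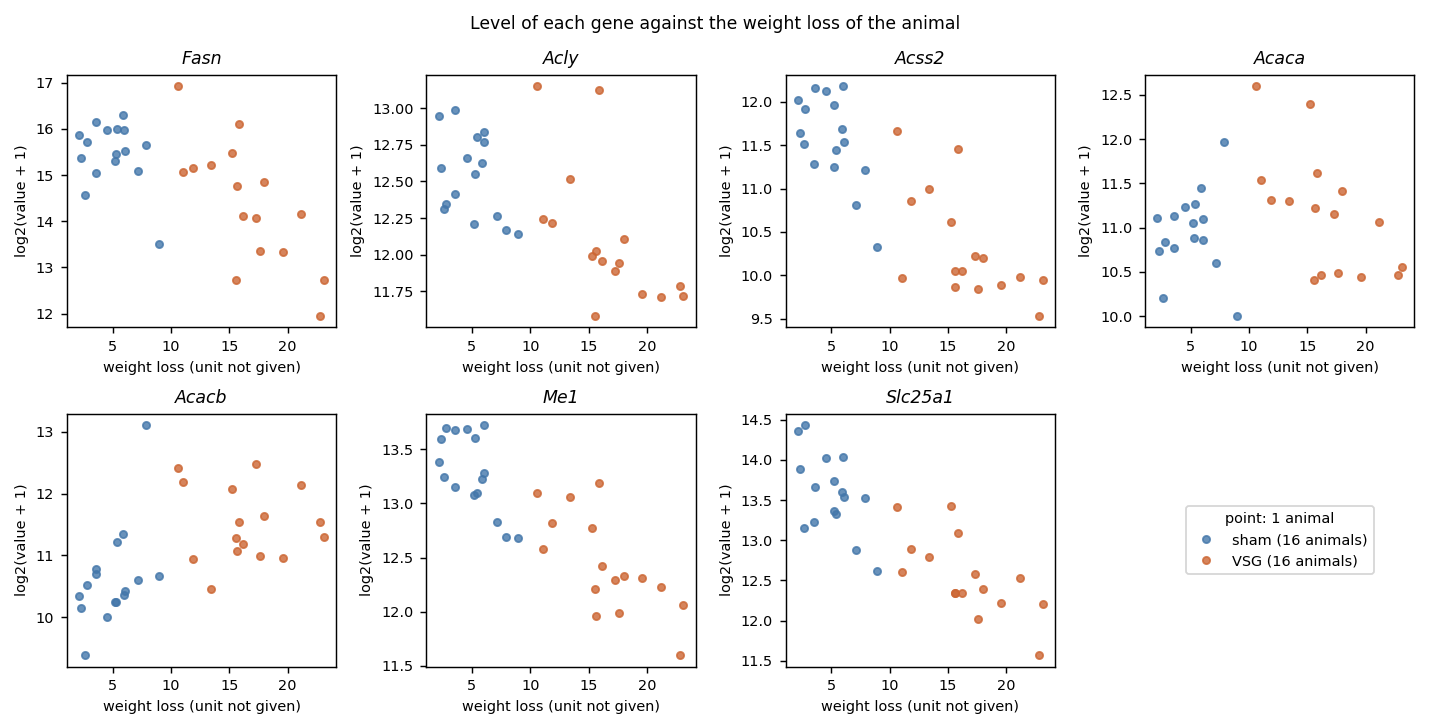
Log2(value + 1) of each gene (y axis) against the weight loss of the animal (x axis, unit not given in the labels), with 16 sham animals in blue and 16 VSG animals in orange. Within VSG, Fasn spans the widest range, highest in the animal with a weight loss of 10.59, and Acacb shows no slope that passed the test.

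Animals that were high for one gene tended to be high for the others. After subtraction of each group's mean, Pearson's r between the 6 genes other than Acacb was 0.53 to 0.92 over the 32 libraries, with the highest value between Acss2 and Me1 (Spearman's rho 0.90) and the lowest between Acaca and Me1 (rho 0.52). For Acacb r was 0.49 with Acaca, 0.20 with Slc25a1, 0.08 with Fasn, -0.12 with Acss2, -0.17 with Acly and -0.24 with Me1. These values are descriptions over libraries that share depth and tissue makeup. Over the same libraries r with the adipocyte marker level was 0.73 for Acaca, 0.71 for Slc25a1, 0.61 for Fasn, 0.54 for Acacb, 0.46 for Acss2, 0.42 for Me1 and 0.40 for Acly. With the muscle marker level it was -0.24 to 0.12 and with the B cell marker level -0.30 to -0.07. With the brown and beige adipocyte marker level r was 0.69 for Acaca, 0.64 for Slc25a1, 0.57 for Acacb, 0.56 for Fasn, 0.37 for Acss2, 0.33 for Me1 and 0.18 for Acly.

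**Figure D5:**
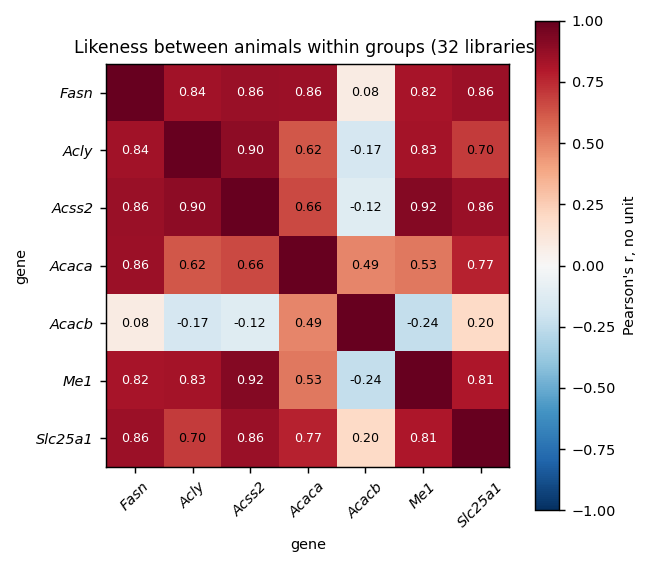
Pearson's r (colour scale and numbers, no unit) between the log2 values of each pair of genes over 32 libraries after subtraction of the mean of each of the 8 groups. The 6 genes other than Acacb have r of 0.53 to 0.92 with each other, and Acacb has -0.24 to 0.49.

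By the same measure the genes most like each member over the 32 libraries were as follows. Fasn was most like Pnpla3, a lipid droplet acyltransferase and hydrolase (r = 0.98, rho = 0.96), then Gstz1 and Hk2, the insulin-responsive hexokinase (r = 0.92 each). Acly was most like Acss2 (r = 0.90, rho = 0.87), then the desaturase Scd2 (0.89) and the elongase Elovl6 (0.88). Acss2 was most like Angptl8, a feeding-induced inhibitor of lipoprotein lipase (r = 0.93, rho = 0.94), then the sterol synthesis gene Nsdhl and Me1 (0.92 each). Acaca was most like the transketolase Tkt (r = 0.93, rho = 0.94), then Alad and Aacs, the acetoacetyl-CoA synthetase (0.91 each). Me1 was most like Nsdhl (r = 0.96, rho = 0.95), Paqr9 (0.94) and Setd8 (0.93). Slc25a1 was most like Ldha (r = 0.95, rho = 0.95), then Agpat2 (0.95), an acyltransferase of triglyceride synthesis, and Pcx (0.94). Acacb was most like Elmod3 (r = 0.91, rho = 0.86), Adig, the fat-specific adipogenin (0.91), and Lman2l (0.90), none of which was among the 3 genes most like another member.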

How the data were processed

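RNA from subcutaneous white fat of 32 mice was sequenced from libraries made with a TruSeq RNA version 2 kit, per the labels' protocols. The submitters' processing notes name STAR 2.5.2a, bcl2fastq 2.17.1.14, DESeq2 1.24.0, R 3.6.3, featureCounts 1.5.0-p1 and the build mm10, without their roles. No source used here gives the strand setting of the counting. The deposited signal is per gene and is scaled by a constant in each library: 100% of the values of every library were whole multiples of a single step (tolerance 0.001), which was taken as 1 read, so that whole reads could be recovered. Other deposited tables were not used. Libraries of a group differed beyond sampling noise (chi-square per degree of freedom 19.6 to 172 over 48 pairs), so each counted as 1 replicate. Groups came from the labels of surgery and time, and replicates were numbered within a group.

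Log2(value + 1) of the 15588 genes with a mean of at least 10 entered limma 3.58.1 under R 4.3.3 with a trended prior variance, and p-values were adjusted over all genes tested by the Benjamini-Hochberg method. A model of 8 group means gave the surgery differences, the effects of time and the interaction, a 24 h cosine and sine per surgery the rhythms, and a slope with a mean per time the relation to weight loss. The log2 scale understates changes of genes with low values. Alternatives were other pseudocounts, filters and scalings, DESeq2 1.42.0 and edgeR 4.0.16 on whole reads, array weights, marker levels as covariates, other designs, and leaving out libraries. Leaving out the 5 libraries highest in B cell markers or the 2 highest in brown and beige markers was chosen after seeing the data. Marker-high libraries otherwise lie above the widest gap in the sorted mean of the list. The fits were tested on simulated counts.

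Named genes were all 7 members, up to 3 called genes in each direction with the largest change per pathway list, the 3 genes with the highest Pearson r with each member (mean of at least 50, predicted and clone names left out), and the 2 genes of each marker list with the highest values, unscaled for length. Members and lists were chosen with earlier results of these data known. Promoter windows matched all 7 members by symbol and are credited to RefSeq (GRCm38.p6). Gene coordinates are those of the deposited table.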

Additional observations from a re-analysis of the deposited data

Results flagged for a closer look

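Of 56 groups of 4 animals, 8 for each of the 7 genes, 6 held an animal far from the other 3 by Dixon's criterion at its 95% critical value. The criterion was applied to the normalized values and not to the log2 values of the fits. Chance gives about 1 in 20 where values are normally distributed, which was not tested here. The 7 genes were measured in the same animals, so the 56 groups are not separate trials. Each flagged animal was the highest of its group, and the criterion was not applied on the log2 scale. After VSG at ZT19, replicate 2 had a Fasn value of 124951 and an Acss2 value of 3249, in the animal with the least weight loss of the VSG animals (10.59) and in a library high in muscle markers (mean log2 level 9.09). After VSG at ZT13, replicate 2 had an Acly value of 8931 and replicate 4 an Acacb value of 5726. After VSG at ZT1, replicate 4 had an Acss2 value of 1846, in the library with the fifth highest level of B cell markers (9.07). In sham animals at ZT19, replicate 4 had an Acacb value of 8789, in a library with a brown and beige marker level of 9.04. The part of these marker levels in the values was not tested.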

How the results depend on the processing

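Over all times the 7 genes gave 4 to 6 calls under each alternative, and leaving out each library gave 6. Of the 15588 genes tested the main fit called 6108, array weights 8790, and leaving out each library 5488 to 6908. The changes of Acss2, Acacb, Me1 and Slc25a1 kept their direction and their call under every alternative run. Fasn lost its call with the muscle and B cell covariates (-0.84), the adipocyte covariate (-0.59), without the 4 high in B cell markers (-0.90), with edgeR (-0.72) and with DESeq2 (-0.72). Acly lost it with the muscle and B cell covariates (-0.34) and the adipocyte covariate (-0.31), and Acaca was called at 0.53 with the latter and was -0.083 without the muscle-marker-high libraries. The cause of each shift was not tested. No paired analysis was possible because animals are numbered within a time, no animal number recurs in both surgeries of a time, and the replicate numbers were given in accession order.

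The calls at single times depended on the alternative. At ZT1 (2 called) there were 0 with no filter, quantile normalization or the muscle and B cell covariates, and 1 with the adipocyte covariate. There were 0 as well in the 8 libraries of that time alone and without the 4 high in B cell markers. Leaving out the 5 highest left VSG at ZT1 with replicate 2 alone. At ZT7 (3 called) there was 1 with quantile normalization or without the muscle-marker-high libraries, 6 with array weights and 0 with edgeR. At ZT13 (3 called) there were 5 with array weights, 0 on leaving out the muscle-marker-high or the 4 or 5 B-cell-marker-high libraries, and 1 with edgeR. At ZT19 array weights gave 1. The share of all genes called moved as well: array weights called 26.3% at ZT7 and 34.5% at ZT13, leaving out the muscle-marker-high libraries 0.295% at ZT13, and leaving out the 4 high in B cell markers 0.0128% at ZT1 and 3.18% at ZT13. By edgeR 732 of the 15588 genes tested were called at ZT7 and 1612 at ZT13. Leaving out each library gave 0 to 3 calls at ZT1, 0 to 4 at ZT7 and 0 to 5 at ZT13. The time effect in sham gave 1 with edgeR and 1 with DESeq2, and the rhythm in sham 1 with DESeq2.

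For the slope on weight loss in VSG (2 called) there was 1 call with no filter or without the 2 libraries highest in brown and beige markers, 6 with array weights and with DESeq2, and 0 with the adipocyte covariate, without the muscle-marker-high libraries, without the 4 or 5 high in B cell markers or without the 2 animals farthest in weight loss. Array weights called 12.9% of all genes there, and the adipocyte covariate 0.577%. Fasn was then not called at -0.21, -0.32, -0.23, -0.22 and -0.24 in that order. Me1 was not called at -0.091 with no filter, -0.070, -0.13, -0.076, -0.079 and -0.080 in the same 5 settings, and -0.090 without the brown-marker-high libraries. Calls were gained with array weights by Acly (-0.077), Acss2 (-0.11), Acaca (-0.12) and Slc25a1 (-0.086), with DESeq2 by the same genes (-0.092, -0.13, -0.13 and -0.093), and by Acaca with the muscle and B cell covariates (-0.15). Acacb turned to 0.022 with the adipocyte covariate and 0.0064 without the muscle-marker-high libraries. Leaving out each VSG library gave 0 to 6 calls, with slopes of -0.32 to -0.23 for Fasn, -0.11 to -0.069 for Acly, -0.14 to -0.090 for Acss2, -0.15 to -0.097 for Acaca, -0.034 to 0.0017 for Acacb, -0.11 to -0.078 for Me1 and -0.12 to -0.076 for Slc25a1. In sham there were 3 calls with the muscle and B cell covariates and with DESeq2, and 0 to 2 on leaving out each library. DESeq2 called 3.9% of all genes for that slope, and the share with the covariates is not given here.

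Other changes of sign concerned values that were not called. Acaca was -0.24 at ZT7 with array weights and -0.25 at ZT7 without the 2 brown-marker-high libraries. It was -0.17 at ZT1 on leaving out the 5 B-cell-marker-high libraries, where VSG replicate 2 alone was left at that time. It was -0.83 at ZT19 without the muscle-marker-high libraries, where VSG replicate 3 alone was left at that time. On leaving out each library Acaca ranged from -0.25 to 0.41 at ZT7 and from -0.27 to 0.45 at ZT19. Its slope in sham then ranged from -0.078 to 0.067. Acacb was -0.28 at ZT19 without the muscle-marker-high libraries, again with VSG replicate 3 alone, so these signs rest on single animals. The Acaca slope in sham was 0.050 without those libraries, 0.018 without a term for time and 0.074 without the 2 animals farthest in weight loss. Depth did not limit the members, with at least 614 reads each per library.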
